A study of Mus musculus with 18 samples.

Results

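The 37 genes of the mitochondrial chromosome (chrM) were followed across round spermatids (RS) of WT, KO and KI mice. RS are haploid male germ cells, past meiosis and not yet elongated. The members were all genes that the deposited count table places on chrM, with symbols beginning with mt-, and they were 37 of the 54232 genes in the table. By the annotation, 2 of them make ribosomal RNA (rRNA), 22 make transfer RNA (tRNA) and 13 encode proteins. RNA was measured in 18 libraries, 6 per genotype, of RS isolated from testes of mice 75 to 85 days old by sedimentation in a gradient of albumin. KO mice lack GRTH, an RNA helicase encoded by Ddx25. KI mice, as the study describes them, carry a human GRTH gene with a missense mutation and lack the phosphorylated form of the protein, and spermatids of both mutants stop before elongation. Libraries were made from total RNA without selection for polyA tails, so rRNA and tRNA could enter them, and whether rRNA was depleted is not given in the sources used here.

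The mouse mitochondrial genome is a small circle whose strands are each transcribed as long RNAs, from which rRNAs, mRNAs and tRNAs are cut, often with a tRNA marking the cut. The rRNAs build the ribosome inside the mitochondrion, the tRNAs serve translation there, and the 13 proteins are subunits of the respiratory chain and of ATP synthase. Transcription is carried out by the polymerase Polrmt with the factors Tfam and Tfb2m, and all proteins of this machinery come from nuclear genes. Most genes lie on one strand in the orientation of the table's plus sign. The minus strand, commonly called the light-strand transcript, carries 9 genes, mt-Nd6 and 8 tRNAs.

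Library totals, the sums of counts over all genes, ran from 18766971 to 26776555. Levels are given as normalized CPM, that is, counts relative to the library total in units of 1e6 and scaled with edgeR's TMM factors, and as CPM per kb where different genes are compared. The targeted gene Ddx25 lay between 538 and 607 CPM in WT, between 47.7 and 90.9 CPM in KO, and between 0.0456 and 0.519 CPM in 5 KI libraries. The library labelled KI 4 had 56.9 CPM of Ddx25, within the KO range and against its label. Several values of KI are therefore given with and without it. Fold changes of nuclear genes in KI are given with it. By a pair index, which is near 1 where the counts of 2 libraries differ by no more than counting noise, that library and KO 2 were the closest pair of all (1.59). Of the pairs within a genotype, WT 1 with WT 2, WT 3 with WT 4, WT 5 with WT 6, KO 4 with KO 5, KI 1 with KI 2 and KI 3 with KI 5 were also close, between 2.05 and 3.24, and libraries of such pairs may not be independent. The p-values therefore measure only the spread between these libraries. All 9 round spermatid markers were detected, with summed levels of 1270 to 1713 CPM in WT, 935 to 1645 in KO and 937 to 1388 in KI. The 6 markers of elongating spermatids summed to between 10754 and 14929 CPM in WT, between 1315 and 2827 in KO and between 1541 and 2590 in KI. In bulk RNA, fewer cells of a type and less RNA per cell cannot be told apart.

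Several chrM genes have near-identical copies in nuclear chromosomes, and read pairs that fit both places equally well are not placed uniquely and were not counted. Each chrM gene was therefore compared with the nuclear transcripts of GENCODE M21 on GRCm38, in windows of 100 bases. An annotated run of 7 pseudogenes on the minus strand of chromosome 1, from 24611535 to 24616197, copies the genes from the end of mt-Co1 to the middle of mt-Nd4. It spans 4663 bases, and the matching stretch of chrM, from 6381 to 11042, spans 4662. Sequences are shown for a gene that cannot be told from its copy, for one that differs at a single base, and for one whose copy on chromosome 2 differs often enough for reads to be placed. A stretch of 100 bases of mt-Co2, a subunit of cytochrome c oxidase (chrM:7313-7412, plus strand, coding exon), occur without a difference in the pseudogene Gm28661.
mt-Co2: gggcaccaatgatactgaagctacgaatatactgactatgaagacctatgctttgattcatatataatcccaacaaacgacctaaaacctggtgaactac
The first 60 bases of mt-Nd3, a subunit of complex I (chrM:9459-9518, plus strand), and of its copy Gm28438 (chr1:24613060-24613119, minus strand) differ at one base, in capitals, the substitution T3C counted from the first base of the gene.
mt-Nd3: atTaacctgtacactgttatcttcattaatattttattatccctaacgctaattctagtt
Gm28438: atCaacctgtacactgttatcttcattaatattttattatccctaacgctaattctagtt
Bases 31 to 110 of mt-Co1, the catalytic subunit of cytochrome c oxidase (chrM:5358-5437, plus strand), and of its copy Gm13340 (chr2:22589538-22589617, minus strand) differ by C54A, A60G and G87A, in capitals and counted in the same way.
mt-Co1: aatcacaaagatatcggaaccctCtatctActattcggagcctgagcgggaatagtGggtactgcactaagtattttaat
Gm13340: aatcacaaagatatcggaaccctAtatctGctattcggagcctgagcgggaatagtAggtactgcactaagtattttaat

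The protein-coding genes fell into sets of very different counts, and the sets followed the copies. In mt-Co2, mt-Atp6 and mt-Co3, 99.49%, 99.48% and 99.85% of windows occurred unchanged in a nuclear transcript, in mt-Nd4l 98.48%, and in mt-Nd3 97.59%. The first 4 of these had between 8 and 102 counts in any library, and mt-Nd3 had between 247 and 860. By contrast, mt-Nd1, mt-Nd5, mt-Nd6 and mt-Cytb held no window found unchanged, and had between 2808 counts (the lowest of mt-Nd6) and 83467 counts (the highest of mt-Cytb) in a library. Between these, mt-Nd2 shared 3.19% of windows, mt-Co1 30.84% and mt-Nd4 60.75%, and all had at least 9246 counts. The exception was mt-Atp8, with 7 to 30 counts and no window in an annotated nuclear transcript. Its gene lies mostly in the 233 bases of chrM between the parts that Gm28661 and Gm10925 copy, and on chromosome 1 these pseudogenes are also 233 bases apart, but that stretch belongs to no annotated transcript and its sequence was not read. mt-Atp8 also shares its last 43 bases, in capitals, with the start of mt-Atp6 (chrM:7890-7969, plus strand), and read pairs that touch both genes were not counted.
mt-Atp8: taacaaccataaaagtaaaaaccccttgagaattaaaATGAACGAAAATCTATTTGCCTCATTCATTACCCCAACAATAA
The part of the copies in the low counts was not tested. The 6 protein-coding genes that lie wholly inside the copied stretch of chrM are those with fewer than 1000 counts in every library, none above 860, and their values are uncertain as amounts of mRNA.

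**Figure D1:**
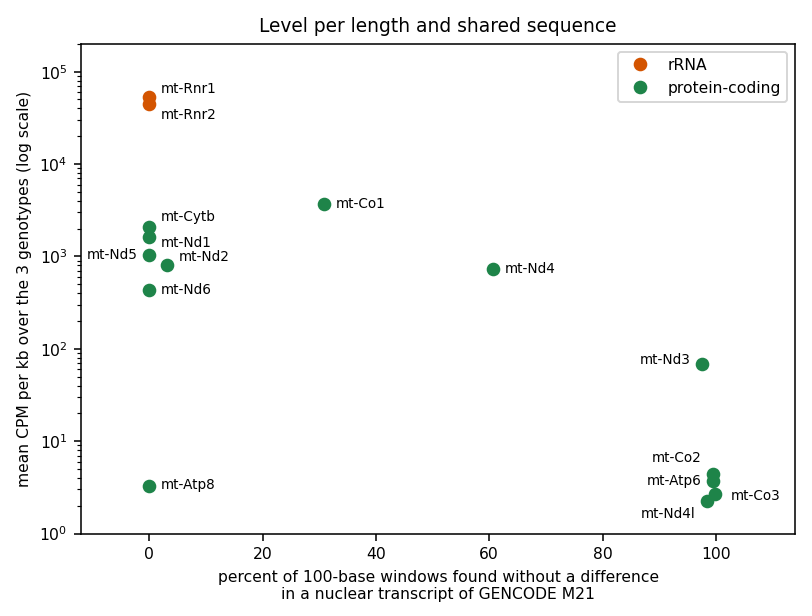
Each point is an rRNA or protein-coding gene of chrM, with the percent of its 100-base windows found unchanged in a nuclear transcript on the x axis and its level per kb, averaged over the genotypes, on a log y axis. The 5 genes with over 97% of windows shared lie below every gene with less sharing except mt-Atp8.

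The pseudogenes themselves held few counts. Gm28661 had 3.55 ± 0.528 CPM in WT, and in KO 3.61 ± 1.40, and in KI 3.87 ± 1.81 (SD over 6 libraries). In mt-Co2 itself the levels were 2.77 ± 0.292, 3.20 ± 1.01 and 3.12 ± 1.12 CPM. Gm10925, the copy of mt-Atp6, averaged 4.35 CPM in WT, 4.66 CPM in KO and 4.86 CPM in KI. Of the 8 pseudogenes tested, 0 were called in KO or KI. Among all genes tested, 16.4% were called higher and 13.5% lower in KO, and 16.1% and 15.4% in KI. With only 8 pseudogenes, no difference from these shares is read. The values of the pseudogenes are as uncertain as those of the genes they copy.

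The rRNAs held most of the mitochondrial counts. They took 90.8% ± 0.884 of chrM counts in WT, 89.6% ± 0.435 for KO and 89.4% ± 0.659 for KI (SD over 6 libraries). Since it is not given whether rRNA was depleted, rRNA shares and ratios to rRNA counts describe the libraries and not the cells. The larger rRNA, mt-Rnr2 (chrM, 1094 to 2675), had a WT median of 70038 CPM, and the smaller, mt-Rnr1 (chrM, 70 to 1024), had 48748. Per length the order was the opposite, with 43480 ± 5576 CPM per kb for mt-Rnr2 and 50242 ± 6262 for mt-Rnr1 in WT. These SDs are between libraries, and within each WT library mt-Rnr1 was the higher per length. Of the protein-coding genes not wholly inside the copied stretch, mt-Co1 was highest in WT, at 3139 ± 292 CPM per kb. The apocytochrome b gene mt-Cytb followed at 1786 ± 340 and mt-Nd1, of complex I, at 1434 ± 85.9. Within each WT library mt-Cytb was the higher of these 2 per length. The complex I genes mt-Nd5 (846 ± 134), mt-Nd2 (761 ± 67.2) and mt-Nd4 (628 ± 110 CPM per kb) came next. Their SD ranges overlapped for mt-Nd5 and mt-Nd2 and for mt-Nd2 and mt-Nd4. Parts of mt-Nd4 and mt-Co1 lie inside the copied stretch, with 60.75% and 30.84% of their windows found unchanged in a nuclear transcript. Their values per full length, and the rank of mt-Nd4, are therefore uncertain. mt-Nd6, a complex I subunit and the only protein encoded on the light strand, was lowest at 351 ± 35.1 CPM per kb. KO and KI kept mt-Co1, mt-Cytb and mt-Nd1 as the leading 3 and mt-Nd6 as the last.

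**Figure D2:**
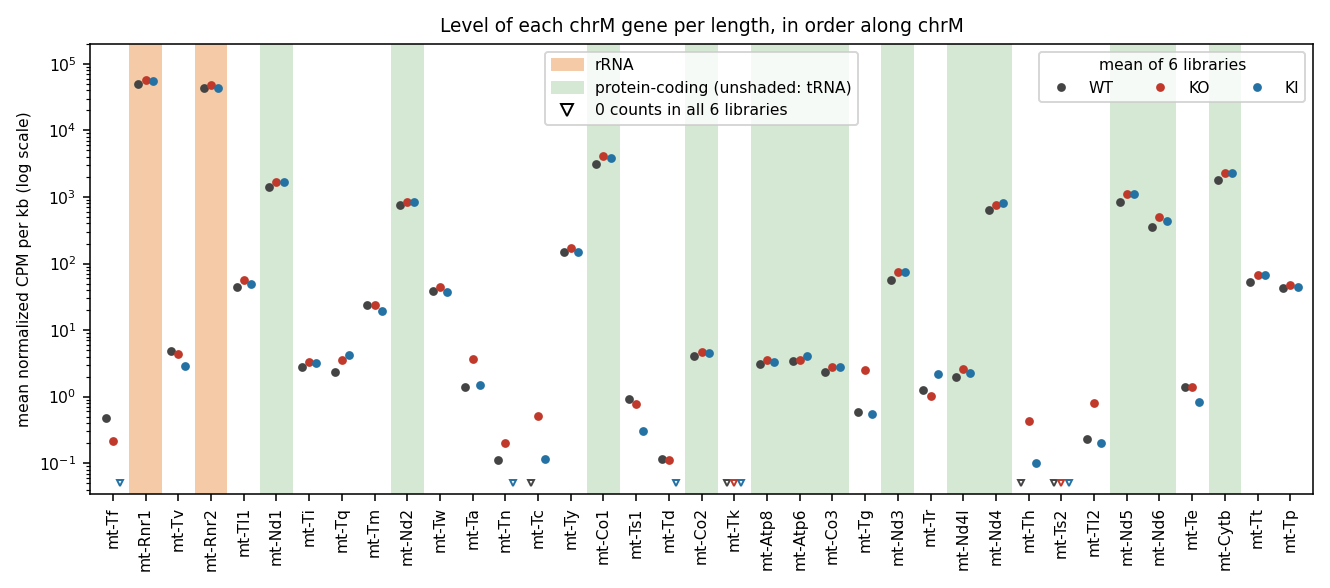
Mean normalized CPM per kb of each chrM gene (log y axis) in the order of the genes along chrM, with 1 point per genotype (mean of 6 libraries) and open triangles for genes at 0 in all 6 libraries. The rRNAs lie between 43480 and 56313 CPM per kb, the protein-coding genes between 351 and 4070 or at 75.6 and below, and mt-Tk and mt-Ts2 are at 0 throughout.

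Transfer RNAs were almost absent from the counts. The 22 genes together held 10915 counts over all libraries, a share of 0.00235% ± 0.000242 of a WT library, 0.00303% ± 0.00115 of a KO library and 0.00273% ± 0.000825 of a KI library (SD, n = 6). They are 59 to 75 bases long and most abut a neighbour on the same strand. A fragment reaching into that neighbour touched more than 1 gene and was not counted. The part of this in the low tRNA counts was not tested. mt-Ty, the tRNA for tyrosine, alone took 38.8% of tRNA counts. Together with mt-Tt, mt-Tl1, mt-Tp, mt-Tw and mt-Tm it made up the 6 tRNAs that passed the filter on low counts, which held 95.3% of tRNA counts. The other 16 never exceeded 13 counts in a library, 7 of them were at 3 counts or fewer in all libraries, and mt-Tk (lysine) and mt-Ts2 (serine) were at 0 in all 18. With 0 counts, up to 3 counts are allowed in each library, by counting error only. The sequences of the 4 most counted tRNAs and of the 2 at 0 are given with the anticodon in capitals, and mt-Ty and mt-Tp lie on the light strand.
mt-Ty (chrM:5260-5326, minus strand): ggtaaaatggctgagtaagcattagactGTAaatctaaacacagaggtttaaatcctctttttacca
mt-Tt (chrM:15289-15355, plus strand): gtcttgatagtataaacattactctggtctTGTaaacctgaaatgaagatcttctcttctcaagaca
mt-Tl1 (chrM:2676-2750, plus strand): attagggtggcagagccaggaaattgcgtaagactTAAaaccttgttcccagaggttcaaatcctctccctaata
mt-Tp (chrM:15356-15422, minus strand): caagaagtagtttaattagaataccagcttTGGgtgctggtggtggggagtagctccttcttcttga
mt-Tk (chrM:7700-7764, plus strand): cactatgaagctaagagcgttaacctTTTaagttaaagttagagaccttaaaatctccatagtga
mt-Ts2 (chrM:11613-11671, plus strand): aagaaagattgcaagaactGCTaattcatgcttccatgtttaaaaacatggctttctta
The 5 tRNA genes inside the copied stretch, mt-Tk among them, never exceeded 7 counts, whereas mt-Ts2 lies outside it.

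Mitochondrial RNA took a variable share of the mutant libraries. In WT the chrM genes took between 9.93% and 13.5% of the counts on genes, with a median of 12.3%. In KO the share ran from 7.89% in KO 1 to 23.6% in KO 3 with a median of 12.7%, and in KI from 8.58% in KI 2 to 19.4% in the library labelled KI 4 with a median of 15.01%. The mean was 12.1% ± 1.46 in WT, 14.7% ± 5.69 in KO and 14.2% ± 4.47 in KI, or 13.2% ± 4.11 in KI without the library labelled KI 4. Both mutants reached above and below the whole WT range. The share of protein-coding genes was 1.098% ± 0.138 in WT, 1.51% ± 0.527 in KO and 1.51% ± 0.502 in KI.

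**Figure D3:**
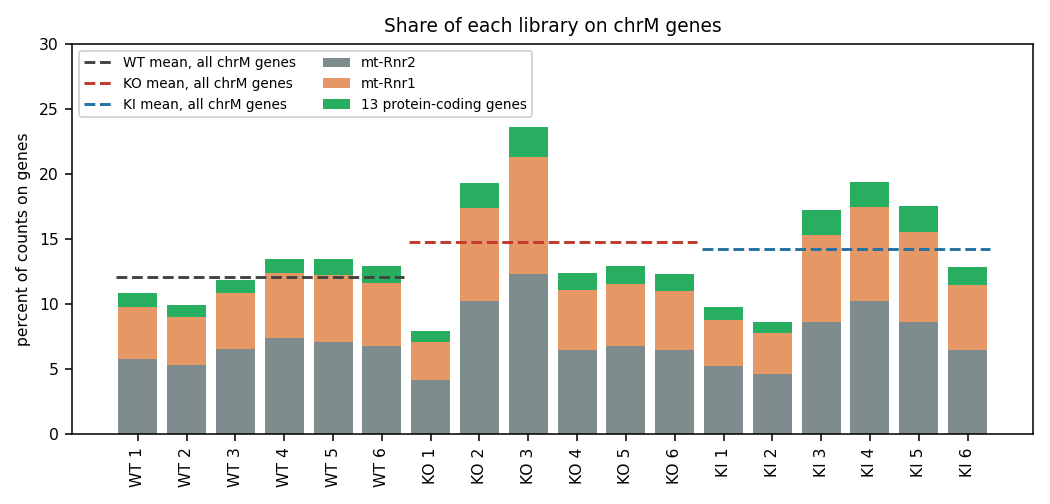
Stacked bars show the percent of the counts on genes that fell on mt-Rnr2, mt-Rnr1 and the 13 protein-coding genes in each of the 18 libraries, and dashed lines the mean of all chrM genes per genotype. WT libraries lie between 9.93% and 13.5%, whereas KO and KI run from 7.89% to 23.6%.

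The genes rose and fell together from library to library. Of the 37 genes, 11 had at least 100 counts in every library (both rRNAs, mt-Ty and 8 protein-coding genes), and in these the first principal component of log2 CPM carried 93.1% of the variance over all libraries and 94.98% of that within genotypes. All libraries share their normalization, so this is a description. In KO 3 all 11 lay above the WT mean, by 0.67 to 1.07 log2 units, and in KO 2 by 0.40 to 0.97. In KO 1 all 11 lay below it, by values between -0.68 and -0.20. KO 4, KO 5 and KO 6 lay near the WT mean, between -0.16 and 0.35. In KI, libraries 3, 5 and the one labelled KI 4 had all 11 above the WT mean, with medians of 0.49, 0.66 and 0.65. KI 1 and KI 2 had all 11 below, with medians of -0.34 and -0.51, and KI 6 lay between -0.29 and 0.42. KO 2 and the library labelled KI 4, the closest pair, had medians of 0.63 and 0.65, whereas the close pair WT 3 and WT 4 had -0.18 and 0.085. Over the libraries of a genotype, the SD of log2 CPM was 0.088 to 0.27 for these genes in WT. It was 0.45 to 0.55 in KO and 0.44 to 0.60 in KI, so each spread more in either mutant than any in WT. All WT libraries belong to close pairs, which may not be independent. Spread within each genotype was not computed over all genes, so this cannot be called particular to chrM genes. Over all genotypes, the fitted coefficient of variation between libraries had a median of 26.8% in the 21 chrM genes tested. In all genes tested it was 22.4%.

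**Figure D4:**
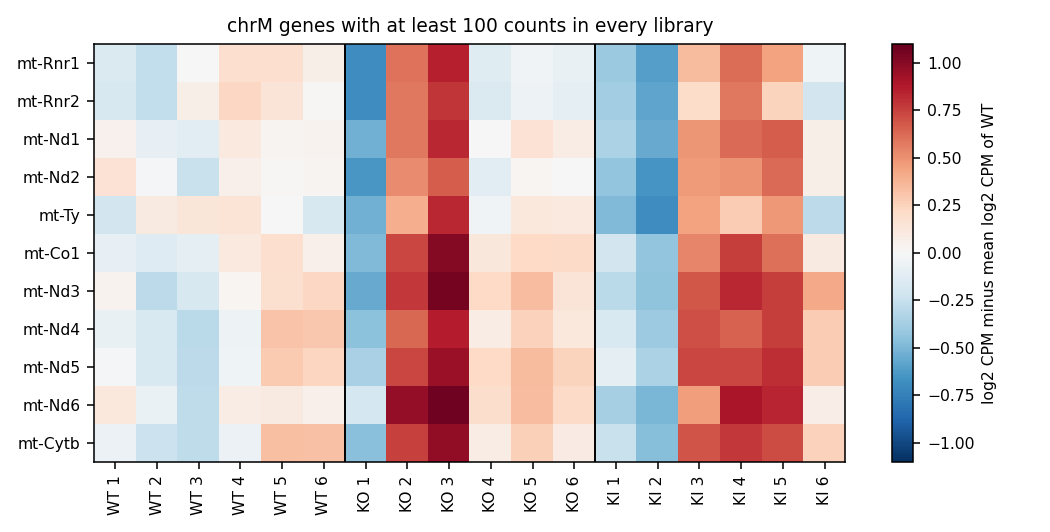
Colours give the log2 CPM of each of the 11 chrM genes with at least 100 counts in every library (rows) minus the gene's mean over WT, for the 18 libraries (columns). Columns of 1 colour from top to bottom show that a library was high (KO 2, KO 3, KI 3, KI 4, KI 5) or low (KO 1, KI 1, KI 2) in all 11 genes.

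Levels of other RNAs differed between the same libraries. Summed round spermatid markers were lowest in KO 3 and KI 3 (935 and 937 CPM), which were high in chrM genes, and highest among mutants in KO 1 (1645), which was low. The order was not kept by KO 2 and the library labelled KI 4, at 1210 and 1205 CPM, which were high in chrM genes and in the 6 spermatogonial markers (104 and 109 CPM against 46.2 to 93.7 in the other mutant libraries). The 7 pachytene spermatocyte markers summed to 749 to 991 CPM in WT, with the highest sum of all, 1175 CPM, in KO 3. The 5 Leydig cell markers summed to 9.68 to 19.7 CPM in WT, 29.6 to 51.0 in KO and 13.2 to 65.7 in KI, highest in KI 2, which was low in chrM genes. The 6 Sertoli cell markers summed to 10.8 to 19.8 CPM in WT, 7.79 to 17.2 in KO and 8.79 to 17.1 in KI, and the 4 endothelial markers to 11.04 to 16.8, 14.3 to 27.8 and 18.2 to 26.03 CPM. Macrophage, peritubular myoid and erythroid markers summed to at most 13.4, 6.39 and 2.92 CPM in any library. Rn7sk, a nuclear noncoding RNA that regulates transcription elongation, had 5257 to 7217 CPM in WT, 3723 to 5630 in KO and 4554 to 7296 in KI. Whether cell composition or RNA quality had a part in the spread of chrM genes was not tested.

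KO was compared with WT to ask whether loss of GRTH changes the mitochondrial RNAs. No chrM gene was called. Of 37 genes, 21 passed the filter on low counts (2 rRNAs, 6 tRNAs and 13 protein-coding genes), and 0 of them were called higher or lower by any amount at an adjusted p under 0.1 (edgeR), where 16.4% of all 21058 genes tested were called higher and 13.5% lower. Against a change of 1 log2 unit 0 were called, with 1.73% of all genes. At an unadjusted p under 0.05 there was 1, with 34.2% of all genes, and DESeq2 called 0. All 21 values were above 0, from 0.01 to 0.50 log2 units with a median of 0.25, beside a median of 0.03 over all genes tested. Because the 21 genes moved together, these are not 21 separate observations. Without KO 3, 14 of the 21 were above 0, with a median of 0.11, and without KO 2 there were 18, with a median of 0.16.

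The largest values in KO were those of mt-Nd6, of mt-Nd4l and mt-Nd3 (0.45 and 0.40, both inside the copied stretch) and of mt-Nd5, and in all of them the libraries overlapped with WT. mt-Nd6 ran from 149 to 196 CPM in WT (median 190), from 158 to 381 in KO (median 220) and from 128 to 338 in KI (median 220, or up to 323 without the library labelled KI 4). Its log2 fold change in KO was 0.50 (SE 0.23, 95% confidence interval 0.01 to 0.98, adjusted p = 0.136, edgeR), the lowest adjusted p of any member. KO 2 and KO 3 were the highest libraries, and KO 1 lay within the WT range. Without KO 1, the library lowest in chrM genes, mt-Nd6, mt-Nd5 and mt-Nd3 were called higher, mt-Nd6 at 0.60 log2 units (adjusted p = 0.0626, edgeR). mt-Nd5 ran from 1252 to 1867 CPM in WT and from 1190 to 2949 in KO, with a log2 fold change of 0.40 (adjusted p = 0.209, edgeR). mt-Co1 ran from 4384 to 5494 CPM in WT and from 3462 to 9722 in KO, with 0.37 log2 units (SE 0.23, adjusted p = 0.270, edgeR). For mt-Cytb the value was 0.34, for mt-Nd4 0.29, for mt-Nd1 0.25 and for mt-Nd2 0.13.

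The rRNAs differed less. mt-Rnr2 ran from 56757 to 80033 CPM in WT, with a median of 70038, and from 42598 to 117688 in KO, with a median of 64457. Its mean change was 0.13 log2 units (95% confidence interval -0.40 to 0.67, adjusted p = 0.780, edgeR), so the KO median lay below that of WT and the fitted change above 0. mt-Rnr1 gave 0.16 log2 units (-0.38 to 0.71, adjusted p = 0.722, edgeR). Among the tRNAs, mt-Ty ran from 8.60 to 10.96 CPM in WT and from 6.87 to 17.5 in KO (0.20 log2 units, adjusted p = 0.558, edgeR). The values of the other 5 tRNAs lay between 0.01 (mt-Tm) and 0.36 (mt-Tt). The 95% intervals of the 21 genes reached from -0.54 to 1.05, and for 20 of them the upper bound was below 1, the exception being mt-Nd4l at 1.05.

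KI was compared with WT for the loss of the phosphorylated form. Again 0 of the 21 genes were called, by any amount or past 1 log2 unit, and DESeq2 called 0. Of all genes tested, 16.1% were called higher, 15.4% lower and 1.95% past 1 log2 unit. At an unadjusted p under 0.05 there were 0, with 35.6% of all genes. The values were above 0 for 19 genes and below for 2 (mt-Tm at -0.31 and mt-Tw at -0.05), with a median of 0.20 beside 0.05 over all genes tested. Without the library labelled KI 4, 13 were above 0 and the median was 0.13, and without KI 5 there were 15, with a median of 0.12. mt-Nd5 had the lowest adjusted p. It ran from 1203 to 2681 CPM in KI, with a median of 2196, and its log2 fold change was 0.40 (SE 0.22, 95% confidence interval -0.05 to 0.86, adjusted p = 0.197, edgeR). mt-Co1 ran from 3583 to 8166 CPM (0.29 log2 units, adjusted p = 0.408, edgeR) and mt-Rnr2 from 45621 to 102264 CPM (0.02 log2 units, 95% confidence interval -0.51 to 0.56). Without the library labelled KI 4, mt-Co1 reached 7372 CPM (0.17 log2 units) and mt-Rnr2 81172 CPM (-0.12 log2 units, a change of sign). The values were then 0.33 for mt-Nd5, 0.18 for mt-Nd6 and -0.00638 for mt-Rnr1, which had been 0.12, and none was called. All of these groups overlapped with WT, which lay inside the KI range for each of the 3 genes. KO and KI are compared with the same WT libraries, so that the values side by side are not independent.

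**Figure D5:**
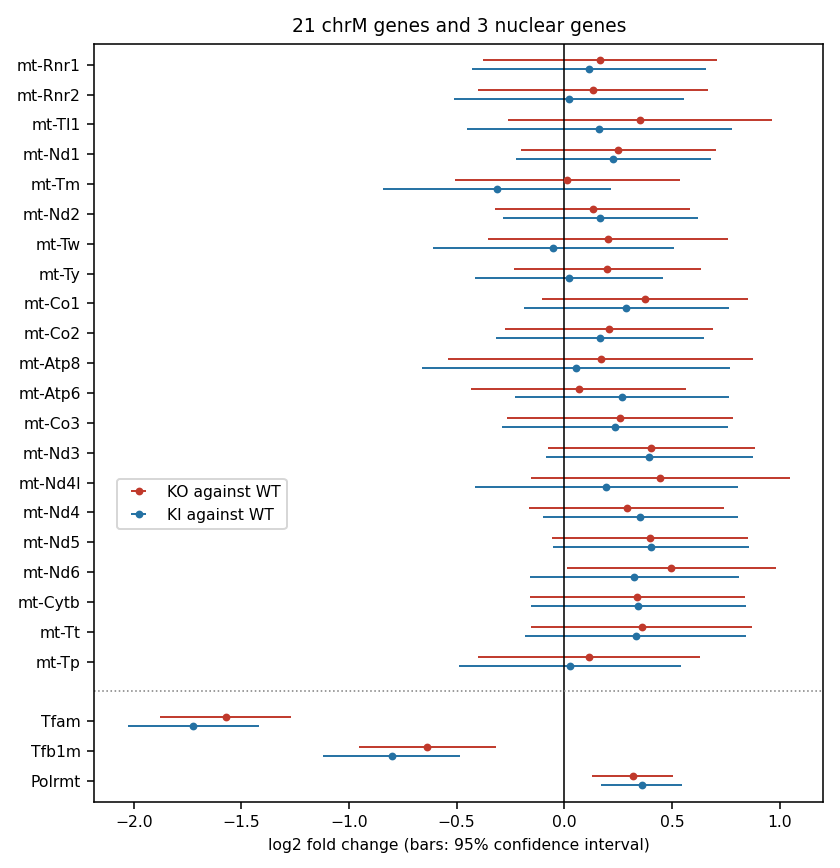
Log2 fold changes of KO (red) and KI (blue) against WT with 95% confidence intervals, for the 21 chrM genes that passed the filter and, under the dotted line, 3 nuclear genes of mitochondrial transcription. Nearly all chrM intervals include 0 (mt-Nd6 in KO, 0.01 to 0.98, is the exception), and those of Tfam, Tfb1m and Polrmt do not. These 3 were drawn because they were called. Of the 10 nuclear genes listed for mitochondrial transcription, 6 were not called in KO and 6 not in KI.

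KI and KO did not differ detectably. Without the library labelled KI 4, which had Ddx25 at the KO level, 0 chrM genes were called. The values of mt-Nd2, mt-Nd4, mt-Nd5 and mt-Cytb then changed sign, and mt-Nd5 averaged 1939 CPM in KI and 2034 in KO. The values that follow are with that library. The test called 0 of 21 genes by any amount (0.0997% of all genes tested were called) or past 1 log2 unit (0.00475%), and 0 at an unadjusted p under 0.05 (4.42% of all genes), and DESeq2 called 0. Values lay between -0.33 (mt-Tm) and 0.20 (mt-Atp6). For mt-Nd5 the difference was 0.00 (95% confidence interval -0.45 to 0.46) and for mt-Rnr1 -0.05 (-0.59 to 0.49), and over the 21 genes the intervals reached from -0.85 to 0.69.

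Ratios within a library do not depend on its total. Per 100 counts of mt-Rnr2, mt-Co1 had 6.29 to 7.72 counts in WT, 7.91 to 8.80 in KO and 7.85 to 9.08 in KI. Every library of either mutant lay above every WT library, a comparison made after the levels were seen and not tested. Of the 13 protein-coding genes this held for mt-Co1 alone in KO and in KI, and for 0 of the 6 tRNAs. Of all 21057 other genes tested, 1.47% lay wholly above WT per mt-Rnr2 count in KO and 2.72% wholly below, and in KI 1.98% and 3.97%. mt-Nd6 came close in KO, at 0.324 to 0.371 per 100 against 0.209 to 0.324 in WT, and overlapped in KI (0.268 to 0.398). Per 100 rRNA counts, the 13 protein-coding genes together had 10.1 ± 1.06 counts in WT libraries, 11.6 ± 0.540 in those of KO and 11.8 ± 0.824 in those of KI (SD, n = 6). WT ran from 8.56 to 10.94, and of the mutant libraries only KO 2 (10.85) and the one labelled KI 4 (10.902) lay inside that range. In KO this ratio varied little from library to library while the chrM share varied from 7.89% to 23.6%.

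The ratio of the rRNAs was compared to ask whether they changed alike. Both are cut from the same transcript. mt-Rnr2 to mt-Rnr1 was 1.43 ± 0.0441 in WT libraries, 1.41 ± 0.0207 in those of KO and 1.36 ± 0.0920 in those of KI (SD, n = 6). The 3 genotype pairs were not distinguished by exact permutation tests, two-sided, with Benjamini-Hochberg adjustment over the 3: the difference of KO from WT was -0.0266 (p = 0.223, adjusted p = 0.223), of KI from WT -0.0752 (p = 0.113, adjusted p = 0.223) and of KI from KO -0.0486 (p = 0.216, adjusted p = 0.223). KI fell into 2 sets, with KI 1, KI 2 and the library labelled KI 4 between 1.40 and 1.46 and KI 3, KI 5 and KI 6 between 1.25 and 1.29. The latter 3 lay below every WT and KO library, of which the lowest was 1.37. The sets were seen in the values and not tested. Each holds a close pair (KI 1 with KI 2, KI 3 with KI 5), whose libraries may not be independent. Without the library labelled KI 4, the KI mean was 1.35 ± 0.1001. Of all chrM counts, the 9 genes of the light strand took 0.154% ± 0.0210 in WT libraries, 0.191% ± 0.00966 in those of KO and 0.174% ± 0.0193 in those of KI (SD, n = 6), most of it mt-Nd6.

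Nuclear genes of mitochondrial gene expression were read in the same fits, and several were called. Tfam, which packages mitochondrial DNA and activates its transcription, and which in mouse testis is also made as a nuclear isoform, ran from 140 to 183 CPM in WT (median 167), from 37.3 to 68.7 in KO (median 57.0) and from 39.0 to 62.2 in KI (median 51.7). All mutant libraries lay below all WT libraries. The log2 fold change was -1.57 in KO (SE 0.15, adjusted p = 5.42e-08 for any amount and 0.0240 past 1 log2 unit, edgeR) and -1.72 in KI (SE 0.15, adjusted p = 1.27e-08 and 0.00242, edgeR). Gene counts do not separate its isoforms. Of the nuclear genes tested for mitochondrial gene expression (152) and respiratory subunits (83), Tfam alone was called past 1 log2 unit, in both mutants. Among the 10 genes of mitochondrial transcription, 2 were called higher and 2 lower in KO, and 2 and 2 in KI. Of all genes tested, 16.4% were called higher and 13.5% lower in KO, and 16.1% and 15.4% in KI. The polymerase Polrmt ran from 17.8 to 21.5 CPM in WT, 21.998 to 26.7 in KO and 23.3 to 27.5 in KI, and rose by 0.32 log2 units in KO (adjusted p = 0.0129, edgeR) and 0.36 in KI (adjusted p = 0.00507, edgeR). Tfb1m, an rRNA methyltransferase related to Tfb2m, changed by -0.64 and -0.80 log2 units (adjusted p = 0.00400 and 4.75e-04, edgeR). Tfb2m (0.08 in both mutants) and the elongation factor Tefm (-0.0027 and -0.0055) were not called. Mterf1b was called in KO (0.73) and Mterf1a in KI (0.51), but these near-identical genes share reads and are uncertain. With libraries of a close pair summed, the calls of Tfam and Tfb1m held in both mutants, and those of Polrmt, of Mterf1b in KO and of Mterf1a in KI were lost. The call of Mterf1a was also lost without any one of WT 1 to WT 4 or KI 4 to KI 6.

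Genes that cut, stabilize and translate the transcripts were called in both directions, as were all genes tested. Of those, 16.4% were called higher and 13.5% lower in KO, and 16.1% and 15.4% in KI. Of 18 genes of cutting and maturation, 2 were higher and 2 lower in each mutant. Trmt10c, a subunit of the RNase P that cuts at the 5′ ends of tRNAs, changed by -1.04 log2 units in KO and -1.23 in KI, with 12.7 to 20.1 CPM in WT against 5.77 to 9.30 and 4.61 to 9.02. Elac2, the enzyme that cuts their 3′ ends, changed by 0.66 and 0.55, and Ptcd1 by 0.67 and 0.79. Trnt1, which adds the CCA end, changed by -0.47 in both. Of the 6 genes of stability and decay, 3 were higher and 1 lower in each mutant. Lrpprc, which stabilizes mitochondrial mRNAs with Slirp, changed by 0.33 and 0.30, whereas Slirp changed by -0.53 and -0.55. Supv3l1, a helicase of the degrading complex, changed by 0.52 and 0.45, its partner Pnpt1 (0.11 and 0.20) was not called, and Grsf1, of mitochondrial RNA granules, changed by 0.50 and 0.41. With close pairs summed, Lrpprc, Slirp and Grsf1 were no longer called in either mutant, and Trnt1 was no longer called in KI. In KI, the call of Slirp was also lost without WT 3, and that of Grsf1 without WT 1, 2, 4 or 5 or KI 1, 2 or 4.

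Of 8 genes of DNA replication, 1 was higher in KO (Primpol, 0.54), and in KI 1 was higher (Polg, the DNA polymerase, 0.29) and 1 lower (Top1mt, -0.34). All 3 calls were lost with close pairs summed, and those of Primpol and Top1mt in DESeq2. Leaving out 1 library also ended them, for Primpol WT 2, 5 or 6 or KO 1, 2 or 3, for Polg WT 1, 2 or 4 or any KI library but KI 4, and for Top1mt any WT library but WT 4 or any KI library but KI 4. Of 13 translation factors 1 was higher in KO, and in KI 2 were higher and 1 was lower, with Mtif3 at 0.52 in KO and 0.42 in KI, Oxa1l at 0.33 and Mrrf at -0.41 in KI. Of 20 genes that charge tRNAs, 2 were higher and 2 lower in KO, and 1 was higher and 4 lower in KI. Vars2 had the largest value (0.86 in KO), Rars2 had 0.54 in KO and Qrsl1 -0.49, and in KI Cars2 had -0.51 and Sars2 -0.49. Of 77 mitochondrial ribosomal protein genes, 4 were higher and 6 lower in KO, and 5 and 10 in KI, among them Mrpl45 (0.74), Mrpl34 (0.68), Mrps7 (0.67) and Mrpl47 (-0.51) in KO and Mrps12 (-0.61) and Mrpl1 (-0.59) in KI. With close pairs summed, Mrpl1 lost its call in KO, and Mtif3, Oxa1l, Mrrf, Cars2, Sars2 and Mrps12 lost theirs in KI. In KI, 1 library decided the calls of Mtif3 (WT 1 or 2, KI 1 or 2), Oxa1l (WT 1, 2 or 5, KI 1, 2 or 4) and Sars2 (WT 1, 2 or 3, KI 1, 3 or 5), which were lost without it. Over the 152 genes of these 7 roles, 9.87% were called higher and 8.55% lower in KO, and 10.5% and 13.8% in KI, below the share of all genes tested in each case.

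Nuclear genes for the partners of the chrM-encoded subunits were called lower where they were called. Of 83 nuclear genes tested, listed by symbol as subunits of the respiratory complexes and ATP synthase, 0 were called higher in either mutant. Of all genes tested, 16.4% were called higher in KO and 16.1% in KI. In KO 12 of the 83 were lower (14.5%, near the 13.5% of all genes tested) and in KI 19 (22.9%, beside 15.4%). The complex V gene Atp5mpl had the largest change, -0.93 in KO and -1.15 in KI, with Atp5g1 at -0.61 and -0.83 and Atp5s at -0.53 and -0.51. In complex I, Ndufa13 changed by -0.59 and -0.79, and Ndufb7 by -0.45 in KI. Ndufa4l2, listed with complex I by its symbol only, changed by -0.43 in KI. Sdhb of complex II changed by -0.68 and -0.67. In complex III, Uqcrh changed by -0.41 and -0.43, and Uqcrfs1 by -0.51 in KI. Cox4i1 (-0.50 and -0.63), Cox7b2 (-0.59 and -0.58) and Cox7a2 (-0.48 and -0.53) of complex IV changed likewise. These calls are for any amount, at an adjusted p under 0.1 (edgeR). With close pairs summed, Cox4i1, Cox7b2 and Uqcrh were no longer called in KO, nor Cox7a2, Cox7b2, Ndufa4l2, Ndufb7, Uqcrfs1 and Uqcrh in KI. The call of Cox7b2 was also lost without WT 3 or WT 4 in both mutants and without KI 5 in KI. In KI that of Ndufa4l2 was lost without WT 1 or 2 or KI 2, 3 or 4, and that of Uqcrfs1 without WT 3 or 4 or KI 3, 5 or 6.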

How the data were processed

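RNA of RS was sequenced in 18 libraries (WT, KO and KI, 6 each), grouped by their labels. The authors trimmed reads with cutadapt 3.4, aligned them with STAR 2.7.8a to GRCm38 (mm10), marked but kept duplicates and counted uniquely placed read pairs by strand on GENCODE M18 with featureCounts 2.0.1, where a pair on several genes is not counted. The deposited values are raw counts per gene, used unchanged; 0 count columns had no library. All 37 chrM genes have the same coordinates in GENCODE M21, whose transcripts gave the sequences printed, and 54165 identifiers have a symbol there. A search of the genome was planned, but no genome sequence was used, so nuclear copies outside annotated transcripts were not read.

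A quasi-likelihood model of genotype over all libraries was fitted with edgeR 4.0.16 (R 4.3.3) to the 21058 genes that passed filterByExpr, with TMM factors. Changes of any amount were tested with glmQLFTest and changes past 1 log2 unit with glmTreat in its worst-case form, with Benjamini-Hochberg adjustment over all genes and a threshold of 0.1. Intervals are the log2 fold change ± its SE times the t quantile. On simulated counts of 20689 genes for KO against WT, glmQLFTest recovered 14% of changes of 0.5 log2 units, 76% of 1 and 96% of 2. In that simulation 20489 genes did not differ, so the adjustment was stricter than in the data. These shares therefore do not give the recovery in the data. The alternatives were DESeq2 1.42.0, its size factors, other filters, samples, thresholds and scalings, the replicate number as a block, close pairs summed, and each library left out. The replicate numbers did not pair the libraries. Same-numbered libraries correlated between -0.44 and 0.48 in their deviations from the genotype means. Windows of 100 bases were compared with nuclear transcripts on both strands, by ungapped matches with at most 4 differences. Figures were drawn with matplotlib 3.10.9.

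The named genes are all chrM genes, 8 chosen nuclear factors and, per role, up to 3 called genes with the largest positive and up to 3 with the largest negative change in KO or KI. The chrM genes, gene lists and marker lists were chosen with earlier results of these data known. Rmrp is at 0 in all libraries. Counts are not molecules, since PCR reads without molecular identifiers are not independent, and floors of 3 counts cover counting error only.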

Additional observations from a re-analysis of the deposited data

Results flagged for a closer look

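Of 117 sets of 6 values (21 chrM genes, 7 ratios or shares and 11 nuclear genes in each genotype), 2 had a library apart from the others by Dixon's ratio, where chance alone gives about 1 in 20. Ddx25 was 56.9 CPM in the library labelled KI 4 and between 0.0456 and 0.519 CPM in the other KI libraries. Tfb2m, a factor of mitochondrial transcription, was 6.76 CPM in KO 1 and between 10.01 and 11.02 CPM in the other KO libraries. KO 1 was also the library lowest in chrM genes, but this is 1 library, and a link was not tested. The 2 of 117 sets are fewer than the rate of 1 in 20. In no chrM gene, share or ratio did a library stand apart in this way.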

How the results depend on the processing

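In simulated counts of 20689 genes for KO against WT, 14% of changes of 0.5 log2 units were recovered, and this was not simulated for the chrM genes alone. There 20489 genes did not differ, whereas the reported fit called 3461 genes higher and 2836 lower in KO. The adjustment was thus stricter in the simulation, and the 14% does not give the recovery in the data. The count of chrM genes called was 0 against WT in most settings. In KO it was 2 with library totals only, 1 with only the 2 genotypes fitted, and 0 to 3 when a library was left out (3 without KO 1). In KI it was 3 with library totals only and 0 to 2 when a library was left out (2 without KI 2). All of these calls were higher values of mt-Nd3, mt-Nd4, mt-Nd5 or mt-Nd6. Library totals alone moved the median of all genes to 0.15 log2 units in KO and 0.20 in KI. Past 1 log2 unit, and between KI and KO, the count was 0 in every setting run, as was the count with the replicate block in all 3 comparisons. In DESeq2, 3 chrM genes had an unadjusted p under 0.05 in KO, 1 in KI and 1 between KI and KO. Not-called values changed sign in 20 cases in KO (7 chrM genes), 33 in KI (7) and 92 between KI and KO (14). No called value reversed. The alternatives chosen after seeing the data were the interval form of glmTreat and leaving out both KO 2 and the library labelled KI 4, and each gave 0 chrM genes. Tfam was called by any amount against WT in every setting run. Over all settings, calls of named nuclear genes were lost in 35 cases in KO and 130 in KI, of which 12 and 25 with close pairs summed. That setting called 1871 genes higher and 1784 lower in KO and 1619 and 1783 in KI, of all genes tested, where the reported fit called 3461 and 2836 and 3397 and 3247. Library totals alone called 5214 higher in KO and 5628 in KI. The replicate block lost Grsf1, Mterf1a, Oxa1l and Top1mt in KI.

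The tRNA share of WT was 0.00264% of the total without mt-rRNA. The light-strand share was, by its new denominators, 0.0195%, 0.0272% and 0.0242% of the TMM-normalized library size in WT, KO and KI, and 1.68%, 1.84% and 1.65% of chrM counts without mt-rRNA. The difference in rRNA ratio with the replicate block was -0.0266 in KO (adjusted p = 0.406), -0.0752 in KI (adjusted p = 0.328) and -0.0486 between them (adjusted p = 0.328), by exact sign flips. When a library was left out, it lay between -0.0366 and -0.0148, between -0.0955 and -0.0541, and between -0.0690 and -0.0276.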
